A study of Mus musculus with 239 samples.

Results

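The genes described here are 40 genes of milk fat synthesis and lipid droplet secretion, out of 18850 genes in the expression table of single mammary cells. They were listed by name for their known place in the pathway, from the uptake of fatty acids to the release of the milk fat globule, by a list drawn up with earlier results of these data known. All 40 had a row in the table. They fall into 8 steps, with 4 genes of uptake and binding, 3 of activation, 5 of precursor supply, 4 of fatty acid synthesis, 7 of elongation and desaturation, 8 of triglyceride assembly, 6 of the droplet and 3 regulators.

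Milk fat is almost wholly triglyceride. The secretory cell of the mammary gland takes up fatty acids from the blood, makes others from acetyl-CoA, joins them to glycerol in the endoplasmic reticulum and stores the product in cytoplasmic lipid droplets. At the apical surface each droplet is wrapped in plasma membrane and shed as a milk fat globule, a process that needs perilipin 2, butyrophilin and xanthine dehydrogenase. Luminal cells line the ducts and alveoli and include the milk-making cells, and basal cells are mostly contractile myoepithelium.

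The cells came from female FVB mice aged 3 to 4 months, an inbred strain with no engineered allele named in the labels. The mice were virgin or at day 12 of pregnancy, given as day 12.5 in the protocol. After depletion of haematopoietic and endothelial cells, basal cells were sorted as intermediate for CD24 and high for CD29, and luminal cells as high for CD24 and low for CD29. Antibody to the endothelial protein CDH5 was in the stain. Single cells were captured on Fluidigm C1 chips and amplified with the SMARTer kit, and Nextera XT libraries were sequenced. The 239 cells were 136 basal cells, with 34 from virgin mice and the remainder from pregnant ones, and 103 luminal cells, with 54 virgin and 49 pregnant. No label names the mouse, chip or day of a cell, so each group is 1 sample: cells are not replicates, no p-value is given, and animal and chip cannot be told apart from group.

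Values are FPKM, fragment numbers scaled by the length of the transcript and the mapped fragments of the cell. The estimated depth was 1.15 to 39.9 M fragments per cell, and the group medians were 6.18 M (virgin basal), 8.53 M (virgin luminal), 9.11 M (pregnant basal) and 8.85 M (pregnant luminal). A median of 1825, 3773, 2734.5 and 3653 genes reached 1 FPKM per cell in these groups, in the same order. Thus virgin basal cells held the fewest genes, which moves with every comparison against them, and its part in those results was not tested. The luminal gate carried its markers, with at least 3 of 7 luminal genes in 54 of 54 virgin and 49 of 49 pregnant cells. However, 11 of 34 virgin basal cells and 44 of the pregnant basal cells also held at least 3, so this count alone does not separate the gates. The summed level of the 7 genes had medians of 3270 (virgin luminal), 3047 (pregnant luminal), 135.8 (virgin basal) and 279 FPKM (pregnant basal), with overlapping ranges. At least 3 of 9 basal genes were found in 28 of 34 virgin basal cells and in all but 1 of the pregnant basal cells, and also in 7 of 49 pregnant luminal cells. Adipocytes, the other fat-storing cell of the gland, were looked for with 10 markers: in pregnant luminal cells 6 were at 0 in every cell, 1 reached 1 FPKM in any cell, and their summed level had a maximum of 50.8 FPKM. In virgin basal cells 5 of the 10 reached 1 FPKM in some cell, with a summed level of up to 1230 FPKM and 1 cell holding 3 of them, and in pregnant basal cells 4 of the 10 did, with a summed level of up to 248 FPKM.

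Milk fat genes were far more abundant in pregnant luminal cells than in the other groups. The 40 genes held a median of 1.46% of a cell's summed FPKM there (0.0659% to 4.90% over cells), against 0.170% in virgin luminal cells (0.0404% to 3.54%), 0.117% in virgin basal cells (0.00157% to 1.62%) and 0.0705% in pregnant basal cells (0.00375% to 1.48%). The ranges overlapped, but the median pregnant luminal cell was above the upper quartile of each other group. The highest virgin luminal cell held 4 of the 40 genes among 1081 genes at 1 FPKM, and Plin3 at 15682 FPKM gave nearly all of its share. The next highest virgin luminal cell was at 1.52%. The highest pregnant basal cell held 6 of 9 markers of endothelial cells. A median of 23 of the 40 genes reached 1 FPKM in a pregnant luminal cell, against 14 (virgin luminal), 6.5 (pregnant basal) and 5 (virgin basal). As a share of all genes found in a cell these are medians of 0.625%, 0.369%, 0.234% and 0.261%, so the order of the luminal groups above the basal ones held after division by the number of genes found. Fabp3 alone gave 49.8% of the list's summed FPKM in pregnant luminal cells, Plin2 18.7% and Thrsp 15.8%, together 84.3%.

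**Figure D1:**
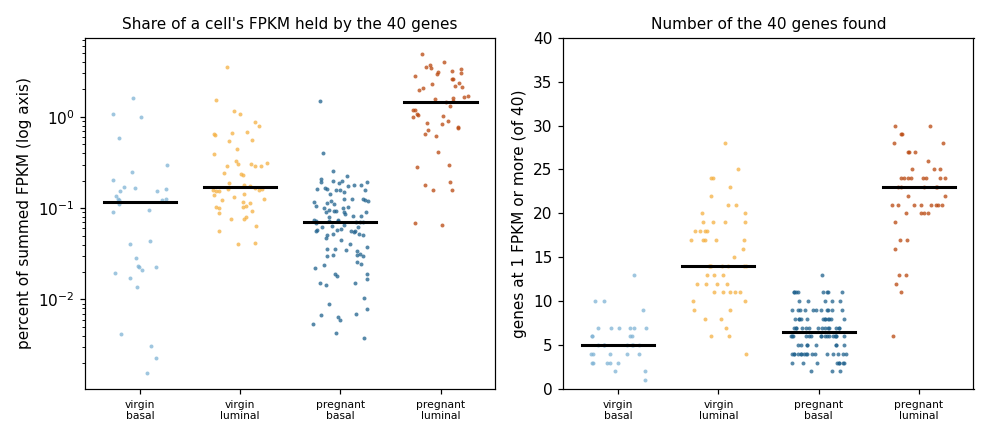
The share of each cell's summed FPKM held by the 40 genes (log scale) and the number of the 40 genes at 1 FPKM or more, with 1 point per cell in each of the 4 groups and the median as a bar. Pregnant luminal cells had the highest medians in both panels, 1.46% and 23 genes, and their points overlap with those of virgin luminal cells.

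Each gene's log2(FPKM + 1) was averaged over the cells of a group, the averages of 2 groups were subtracted, and a gene is counted as higher or lower when this difference was at least 1 in size. This scale understates the change of low genes. Pregnant luminal cells were higher than virgin luminal cells in 18 of 40 genes and lower in 2 (Lpin2 and Dgat2), where 4.84% of 10349 genes in the comparison were higher and 5.04% lower. The median difference of the 40 genes was 0.83, and that of all 10349 genes was -0.01. Against pregnant basal cells, pregnant luminal cells were higher in 25 of 40 genes and lower in 0, with a background of 16.3% higher and 5.27% lower and medians of 1.52 and 0.24. The 10349 genes are those that reached 1 FPKM in 10 or more of the 239 cells, and 38 of the 40 genes are among them. The exceptions are Acacb and Gpam, which reached 1 FPKM in 3 and 5 cells, and all 40 genes are counted here.

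In basal cells few of the genes differed between virgin and pregnant animals. In pregnant basal cells 1 of 40 was higher (Fads1) and 2 were lower (Cd36 and Lpl), with a background of 12.0% higher and 0.454% lower and medians of 0.04 for the list and 0.20 for all genes. These calls depended on the cells used: among cells with at least 2000 genes, 1 of the 3 remained (Lpl, -1.25), Fads1 was at 0.70, and Acsl4 (-1.40), Plin2 (-1.03) and Elovl5 (1.14) passed 1. The middle range of genes found (2427.5 to 3729) left 6 virgin and 64 pregnant basal cells. There Lpl was at -0.96, Fads1 remained (1.63), and Acsl4, Plin2 and Xdh newly fell below -1. Acsl4 and Plin2 thus passed -1 in both of these choices of cells. Virgin luminal cells already exceeded virgin basal cells in 16 of 40 genes and were lower in 1 (Cd36), with a background of 26.9% higher and 2.41% lower and medians of 0.85 and 0.46. The comparisons share cells: pregnant luminal, virgin luminal, pregnant basal and virgin basal cells each enter 2 of them.

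**Figure D2:**
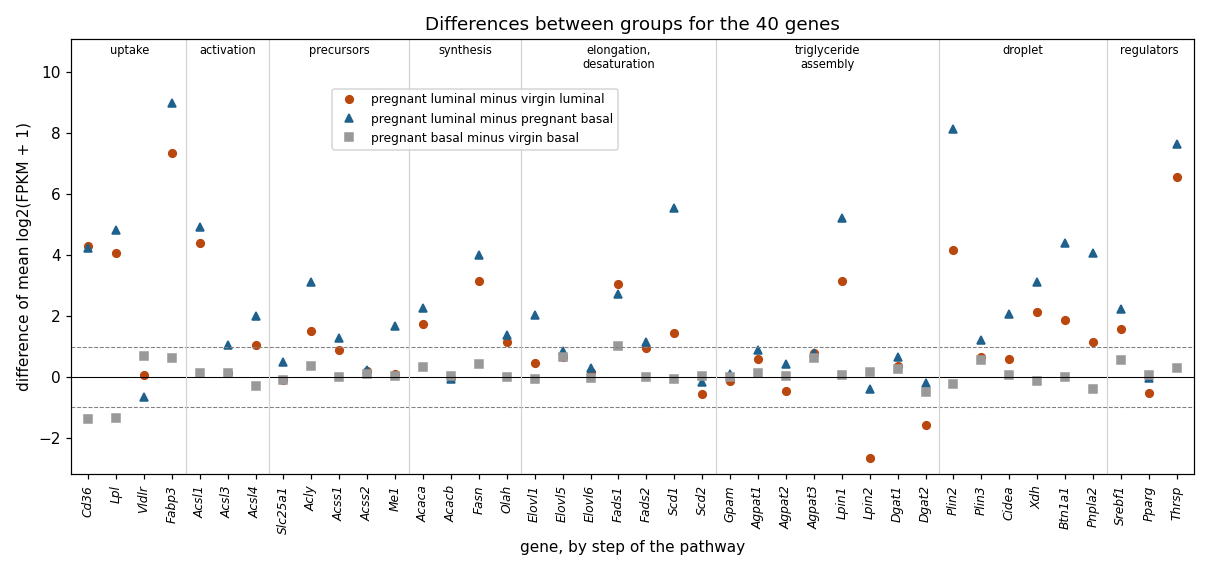
Difference of mean log2(FPKM + 1) for each of the 40 genes, ordered by step of the pathway, for 3 comparisons, with dashed lines at 1 and -1. Fabp3 (7.34), Thrsp (6.57), Acsl1 (4.39), Cd36 (4.31) and Plin2 (4.18) led the comparison of pregnant with virgin luminal cells, Lpin2 (-2.65) and Dgat2 (-1.58) lay below -1, and in the basal comparison (squares) Cd36 (-1.39), Lpl (-1.34) and Fads1 (1.01) alone passed the lines.

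The promoters of 3 of the genes that led the luminal comparison and of Fasn, the central enzyme of synthesis, are shown because these genes were high together in pregnant luminal cells. Each is the 250 bases before the start of transcription in RefSeq (build GRCm38.p6), written 5′ to 3′ on the strand of the gene, with CCAAT or its reverse complement in capitals. Fabp3 lies at chr4:130308488-130308737 on the plus strand, Plin2 at chr4:86670060-86670309, Thrsp at chr7:97417551-97417800 and Fasn at chr11:120824548-120824797, all 3 on the minus strand. In GENCODE, the source of the gene coordinates given below, Fabp3 starts at 130308595 and Thrsp at 97417730, both inside these windows. The sources thus differ in the start of these genes, and part of each window lies within the gene as GENCODE draws it.
Fabp3: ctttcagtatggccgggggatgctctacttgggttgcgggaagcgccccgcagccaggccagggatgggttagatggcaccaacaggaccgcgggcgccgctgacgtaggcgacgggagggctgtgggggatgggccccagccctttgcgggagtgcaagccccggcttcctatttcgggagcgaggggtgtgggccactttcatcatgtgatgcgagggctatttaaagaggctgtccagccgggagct
Plin2: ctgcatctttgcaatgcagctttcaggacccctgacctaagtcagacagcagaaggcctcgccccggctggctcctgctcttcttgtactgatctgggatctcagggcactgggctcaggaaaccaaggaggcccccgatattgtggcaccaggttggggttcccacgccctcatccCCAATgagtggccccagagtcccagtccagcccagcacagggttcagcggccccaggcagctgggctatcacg
Thrsp: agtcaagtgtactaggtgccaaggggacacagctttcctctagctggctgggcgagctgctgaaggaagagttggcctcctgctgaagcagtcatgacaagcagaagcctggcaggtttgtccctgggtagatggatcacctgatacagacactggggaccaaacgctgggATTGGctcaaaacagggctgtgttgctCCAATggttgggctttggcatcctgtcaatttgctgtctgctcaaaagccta
Fasn: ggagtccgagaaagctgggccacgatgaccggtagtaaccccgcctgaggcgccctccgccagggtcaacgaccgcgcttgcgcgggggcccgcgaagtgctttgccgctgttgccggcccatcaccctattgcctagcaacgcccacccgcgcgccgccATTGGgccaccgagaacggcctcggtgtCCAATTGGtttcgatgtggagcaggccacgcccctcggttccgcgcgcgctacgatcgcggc

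CCAAT was found in Plin2 at -73, in Thrsp at -79 and -52, and in Fasn at -90, -62 and -59, counted from the start to the match's first base, and the last pair in Fasn overlap. The Fabp3 window held no match to any of 5 motifs searched on both strands: CCAAT, the GC box GGGCGG, the STAT5 motif TTCNNNGAA, the sterol response element TCACNCCAC and the TATA box TATAAA. STAT5 carries the prolactin signal and the sterol response element is bound by SREBP proteins. RefSeq promoters were matched for 31 of the 40 genes by symbol. They gave 43 windows, and for 39 the bases after the start lay near the opening of a GENCODE transcript. CCAAT was present in 19 of these 31 (61.3%), against 37.5% of 27025 genes with a promoter in the table, and GGGCGG in 20 (64.5%), against 35.4%. TTCNNNGAA was present in 1 of 31 (Agpat1), against 8.13% of all genes, TCACNCCAC in 1 (Acsl1), against 1.22%, and TATAAA in 2 (Acacb and Pparg), against 14.3%. A gene with several starts was counted once if any of its windows held the motif. The 27025 genes had 32851 windows, fewer per gene than the 31 listed genes. They were also not limited to genes found in these cells, so the 2 sets are not alike. These are matches of letters and were not tested as sites.

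Of the genes of uptake and binding, 3 of 4 were higher in pregnant than in virgin luminal cells, and the same 3 were higher than in pregnant basal cells. The counts of each step stand beside the same backgrounds. These are 4.84% of all genes higher than in virgin luminal cells and 16.3% higher than in pregnant basal cells. Fabp3 (chromosome 4, 130308595 to 130315463, GRCm38), which encodes a protein that carries fatty acids in the cytosol, ranged from 1.99 to 17036 FPKM in pregnant luminal cells, with a median of 2319. In virgin luminal cells it ranged from 0 to 1663 FPKM with a median of 0.605, in pregnant basal cells from 0 to 363 with a median of 0, and in virgin basal cells from 0 to 0.727 with a median of 0. Pregnant luminal cells thus lay above all virgin basal cells and overlapped with the other groups. Fabp3 was at 1 FPKM or more in 49 of 49 pregnant luminal cells and in 25 of 54 virgin luminal cells (46.3%, exact Clopper-Pearson 95% interval 32.6% to 60.4%, which covers counting error only). Its mean log2(FPKM + 1) was 9.78 ± 3.34 (SD over 49 cells) and 2.44 ± 3.23 (SD over 54 cells), a difference of 7.34, and the difference from pregnant basal cells was 9.01.

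Cd36 (chromosome 5, 17781690 to 17888801) encodes a fatty acid transporter of the cell surface. It ranged from 0 to 515 FPKM in pregnant luminal cells, with a median of 42.9, and reached 1 FPKM in 38 of 49 cells. Virgin luminal cells ranged from 0 to 111 FPKM with a median of 0, and 6 of 54 cells reached 1 FPKM. The difference between the luminal groups was 4.31, with most pregnant cells above most virgin cells and some of both at 0. Lpl, the lipase that frees fatty acids from circulating lipoproteins, had a median of 68.6 FPKM (0.320 to 729) in pregnant luminal cells and 0.410 (0 to 120) in virgin luminal cells, with a difference of 4.07. Vldlr, a lipoprotein receptor, did not follow: it reached 1 FPKM in 5 of 49 pregnant luminal and 6 of 54 virgin luminal cells, whereas 26.5% of pregnant basal cells held it.

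Activation of a fatty acid joins it to coenzyme A, and of the 3 enzymes listed Acsl1 stood out. In pregnant luminal cells Acsl1 had a median of 63.4 FPKM (0.0265 to 225) and reached 1 FPKM in 44 of 49 cells. Its median was 0 in virgin luminal cells (0 to 113), where 11 of 54 cells reached 1 FPKM, and the difference was 4.39. Acsl4 was also higher (difference 1.05), while Acsl3 was not (0.12). The difference of Acsl4 fell short of 1 when values were rescaled without milk protein genes. The order of Acsl1 and Acsl4 differed between the 2 luminal groups. Acsl1 was above Acsl4 in 38 of 49 pregnant luminal cells and in 5 of 54 virgin luminal cells. Against pregnant basal cells all 3 were higher, by 4.93 for Acsl1, 2.01 for Acsl4 and 1.05 for Acsl3.

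Of the 5 genes of precursor supply, 1 was higher in pregnant than in virgin luminal cells. That gene was Acly, ATP citrate lyase, which makes cytosolic acetyl-CoA from citrate. Its median was 27.5 FPKM in pregnant luminal cells (0 to 189) and 5.80 in virgin luminal cells (0 to 134), ranges that overlap widely, and its difference was 1.50. The citrate carrier Slc25a1 (-0.10), the NADPH-making malic enzyme Me1 (0.10) and the acetyl-CoA synthetase Acss2 (0.21) had small differences, and that of the mitochondrial synthetase Acss1 was 0.87. Acss1 reached 1 FPKM in 16 of 49 pregnant luminal cells, 9 of 54 virgin luminal cells and 0 of 136 basal cells, counts of 0 that permit up to 8.82% of virgin and 2.94% of pregnant basal cells. Acly (3.12), Me1 (1.67) and Acss1 (1.30) were higher than in pregnant basal cells.

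In fatty acid synthesis 3 of 4 genes were higher in pregnant luminal cells, in both comparisons. Fasn (chromosome 11, 120805846 to 120824547), the fatty acid synthase, had a median of 38.7 FPKM in pregnant luminal cells (0 to 272) and 1.84 in virgin luminal cells (0 to 72.1). It reached 1 FPKM in 46 of 49 and in 30 of 54 of these cells, and its difference was 3.15. In pregnant basal cells the median was 0.00970 (0 to 47.2). Pregnant luminal cells were mostly high and the other groups mostly low, with overlap.

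Acaca, the acetyl-CoA carboxylase that commits acetyl-CoA to synthesis, had a difference of 1.73, with 41 of 49 pregnant luminal cells and 19 of 54 virgin luminal cells at 1 FPKM or more. Its sister gene Acacb, the carboxylase of the mitochondrial surface, was under 1 FPKM in every pregnant luminal cell (0 of 49, a count that permits at most 6.12% of cells). Acaca was above Acacb in 48 of 49 of them. Olah, the thioesterase that ends chains early and so gives the medium-chain fatty acids typical of milk, reached 1 FPKM in 17 of 49 pregnant luminal cells (34.7%, 95% interval 21.7% to 49.6%) and in 3 of 54 virgin luminal cells (5.56%, 1.16% to 15.4%). It ranged up to 175 FPKM in pregnant luminal and 27.5 FPKM in virgin luminal cells and was listed at 0 in all 136 basal cells. Thus Fasn was found in nearly all pregnant luminal cells and Olah in a minority.

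Of 7 genes of elongation and desaturation, 2 were higher in pregnant than in virgin luminal cells. Fads1, the delta-5 desaturase of polyunsaturated fatty acids, had a median of 35.3 FPKM in pregnant luminal cells (0 to 275) and 0.0151 in virgin luminal cells (0 to 182), a difference of 3.04. Its partner Fads2 had a difference of 0.94. Fads1 was also the single listed gene that was higher in pregnant than in virgin basal cells, at 1 FPKM or more in 43.1% against 17.6% of cells (difference 1.01). The elongases Elovl1 (0.46), Elovl5 (0.65) and Elovl6 (0.17) and the desaturase Scd2 (-0.56) did not reach 1 between the luminal groups. Against pregnant basal cells 4 of 7 were higher and 0 lower, with a background of 16.3% higher and 5.27% lower. The 4 were Scd1, Fads1, Fads2 and Elovl1 (mean log2 3.83 against 1.80).

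Scd1 (chromosome 19, 44394455 to 44407879), the delta-9 desaturase that makes oleic acid, was already high in many virgin luminal cells. It had a median of 22.1 FPKM there (0.0460 to 1748) and 90.9 FPKM in pregnant luminal cells (0.653 to 667), with 46 of 54 and 48 of 49 cells at 1 FPKM or more. Its difference of 1.45 goes with a ratio of mean FPKM of 0.946, since the highest virgin cells exceeded every pregnant cell. Without the 33 virgin luminal cells that held Esr1, the difference turned to -0.52. In pregnant basal cells the median was 0.0214 FPKM (0 to 159), and the difference of pregnant luminal from pregnant basal cells was 5.53. Scd1 was above Scd2 in 48 of 49 pregnant luminal cells. These 2 genes are close copies, and how fragments matching both were assigned is not stated in the labels.

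Triglyceride assembly was the one step with genes in both directions: 1 of 8 was higher and 2 were lower in pregnant than in virgin luminal cells. The background was 4.84% higher and 5.04% lower. Against pregnant basal cells 1 of 8 was higher (Lpin1) and 0 lower, with a background of 16.3% higher and 5.27% lower. The lipins turn phosphatidic acid into diacylglycerol. Lpin1 (chromosome 12, 16535669 to 16610966) had a median of 64.2 FPKM in pregnant luminal cells (0.0456 to 250) and 1.44 in virgin luminal cells (0 to 129), a difference of 3.14. Lpin2 (chromosome 17, 71182560 to 71249817) had a median of 0.0178 FPKM in pregnant luminal cells (0 to 12.0) and 6.96 in virgin luminal cells (0 to 132), a difference of -2.65. Between these groups taken whole, the 2 genes therefore exchanged rank. Lpin1 was above Lpin2 in 48 of 49 pregnant luminal cells and in 19 of 54 virgin luminal cells. The order within virgin luminal cells differed with Esr1. In the 33 cells that held it the medians were 0.46 FPKM of Lpin1 and 15.8 FPKM of Lpin2. In the 21 others they were 10.0 and 1.60 FPKM, already the order of pregnant luminal cells. Lpin2 reached 1 FPKM in 6 of 49 pregnant luminal cells (12.2%, 4.63% to 24.8%) and in 39 of 54 virgin luminal cells (72.2%, 58.4% to 83.5%).

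The final step, from diacylglycerol to triglyceride, is made by Dgat1 or Dgat2. Dgat2 (chromosome 7, 99153658 to 99182719) reached 1 FPKM in 3 of 49 pregnant luminal cells (0 to 37.1 FPKM, median 0) and in 21 of 54 virgin luminal cells (0 to 309 FPKM, median 0.0810), with a difference of -1.58. Without the virgin luminal cells that held Esr1 this difference was 0.057. Dgat1 reached 1 FPKM in 14 of 49 pregnant and 10 of 54 virgin luminal cells, a difference of 0.36, so neither enzyme was found in most pregnant luminal cells. Gpam, the mitochondrial enzyme of the first acylation, was at 1 FPKM or more in 1 of 49 pregnant and 4 of 54 virgin luminal cells, and the acyltransferases Agpat1 (0.59), Agpat2 (-0.47) and Agpat3 (0.79) did not reach 1. At the depth of the median cell 1 fragment was worth 0.0657 FPKM of Dgat1 and 0.0509 FPKM of Dgat2, so values of 1 FPKM rest on many fragments, but loss of transcripts in capture of a single cell is not measured in the table.

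All 6 genes of the droplet step were higher in pregnant luminal than in pregnant basal cells (background 16.3%). Compared with virgin luminal cells, 4 of 6 were higher (background 4.84%). Plin2 (chromosome 4, 86648386 to 86670060), the perilipin that coats milk lipid droplets, had a median of 1447 FPKM in pregnant luminal cells (0.497 to 3117). Virgin luminal cells had a median of 66.6 FPKM (0 to 1653), pregnant basal cells 0.0520 (0 to 381) and virgin basal cells 0 (0 to 787). Pregnant luminal cells were mostly above the whole of both basal groups and overlapped with virgin luminal cells, which spread widely. The difference was 4.18 from virgin luminal and 8.15 from pregnant basal cells. Plin2 was above Plin3, a related coat protein of small droplets, in 46 of 49 pregnant luminal cells and 37 of 54 virgin luminal cells.

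Among the genes of globule secretion, Btn1a1, the butyrophilin of the globule membrane, had a median of 26.3 FPKM in pregnant luminal cells (0.0461 to 273) and 2.13 in virgin luminal cells (0 to 240). It was close to absent from basal cells, with 1 virgin and 1 pregnant basal cell at 1 FPKM or more. Its difference was 1.85 from virgin luminal and 4.39 from pregnant basal cells. Xdh, the xanthine dehydrogenase that binds butyrophilin, had a median of 12.8 FPKM in pregnant luminal cells (0 to 154) and 0.195 in virgin luminal cells (0 to 905), a difference of 2.12. Its mean FPKM was nearly equal in the 2 groups (ratio 1.04), because 1 virgin luminal cell gave 70.3% of the summed FPKM of its group. Pnpla2, a lipase of the droplet surface, was higher by 1.14. This difference fell short of 1 when values were rescaled without milk protein genes and in the middle range of genes per cell. Against virgin luminal cells without Esr1 it was 0.76. Cidea, a protein of droplet growth, differed by 0.58. Cidea was found in 20 of 49 pregnant and 16 of 54 virgin luminal cells. In Plin3 1 virgin luminal cell at 15682 FPKM gave 94.9% of the group's sum, against a group median of 3.43 FPKM and a pregnant luminal median of 10.8 FPKM.

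**Figure D3:**
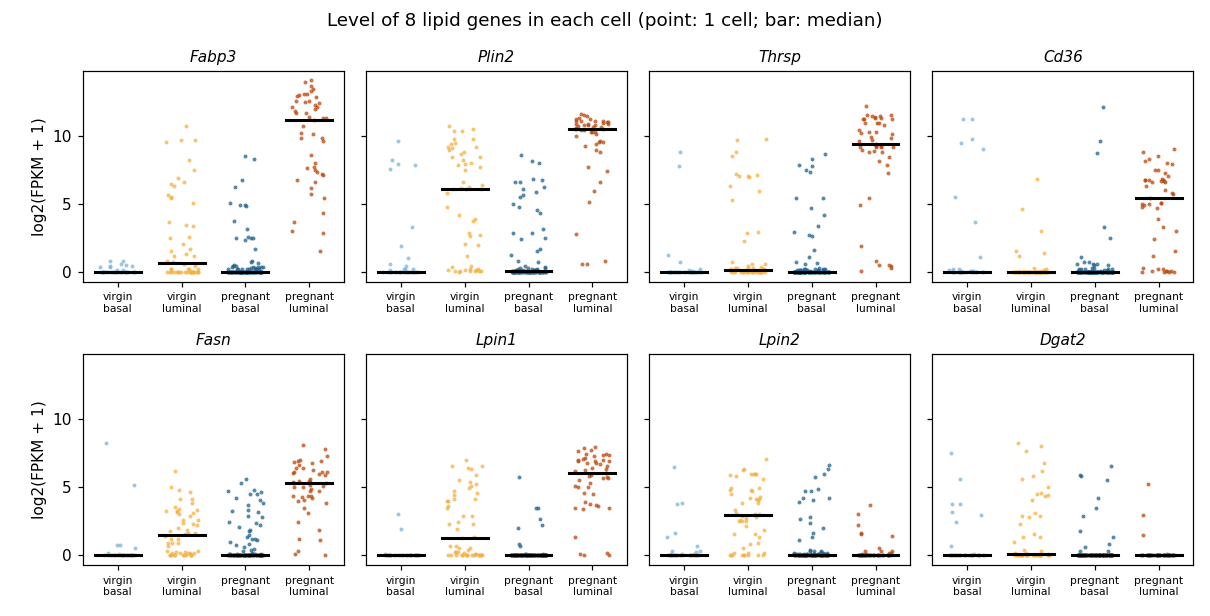
FPKM of 8 of the 40 genes in every cell, as log2(FPKM + 1), with 1 point per cell, 4 groups per panel and a bar at the median. Fabp3, Plin2 and Thrsp fill the upper part of the scale in pregnant luminal cells (medians 2319, 1447 and 661.5 FPKM). Lpin1 and Lpin2 have opposite positions in the 2 luminal groups (medians 64.2 and 0.0178 FPKM in pregnant, 1.44 and 6.96 FPKM in virgin luminal cells). In the virgin luminal cells without Esr1, Lpin1 had the higher median (10.0 against 1.60 FPKM).

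Of the 3 regulators, 2 were higher in pregnant than in virgin luminal cells. Thrsp (chromosome 7, 97412938 to 97417730), also called Spot 14, is a nuclear protein that promotes fatty acid synthesis. It had a median of 661.5 FPKM in pregnant luminal cells (0.0837 to 4648) and 0.147 in virgin luminal cells (0 to 886), and reached 1 FPKM in 43 of 49 and 15 of 54 cells. The difference was 6.57, and 7.64 from pregnant basal cells, which ranged from 0 to 396 FPKM with a median of 0. Srebf1, the SREBP transcription factor of lipid synthesis, was higher by 1.57, with medians of 11.9 and 0.436 FPKM. Pparg, the nuclear receptor of adipocyte differentiation, was found in 2 of 49 pregnant luminal cells at up to 6.45 FPKM and in 8 of 54 virgin luminal cells at up to 114 FPKM.

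Virgin luminal cells were not uniform. Esr1, the oestrogen receptor that marks hormone-sensing luminal cells, reached 1 FPKM in 33 of 54, and these had a median of 3912 genes per cell against 3485 in the other 21. With Esr1, 3 of 40 genes were higher by at least 1 (background 10.5%) and 8 were lower (background 3.42%). The 3 higher genes were Dgat2 (2.67), Lpin2 (1.89) and Pparg (1.01). The 8 lower genes were Plin2 (-3.85), Scd1 (-3.22), Fads1 (-2.39), Thrsp (-2.32), Lpin1 (-1.40), Xdh (-1.15), Acaca (-1.05) and Fads2 (-1.02).

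The medians show the size of the contrast. Plin2 had a median of 6.35 FPKM in cells with Esr1 and 442 FPKM in those without, and Scd1 had 11.3 and 91.5 FPKM. Dgat2 reached 1 FPKM in 19 of 33 cells with Esr1 and in 2 of 21 without, and Pparg in 8 of 33, while its highest value without Esr1 was 0.0513 FPKM. The ranges of Plin2 overlapped, up to 1433 FPKM with Esr1 and 1653 FPKM without. Set against the 21 virgin luminal cells without Esr1 alone, pregnant luminal cells were still higher in Fabp3 by 6.74, Thrsp by 5.15, Cd36 by 4.19, Acsl1 by 3.79 and Fasn by 2.86, and lower in Lpin2 by a difference of -1.49. For Plin2 the difference was then 1.83. Groups split on Esr1 were defined here from the data and are no groups of the study.

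**Figure D4:**
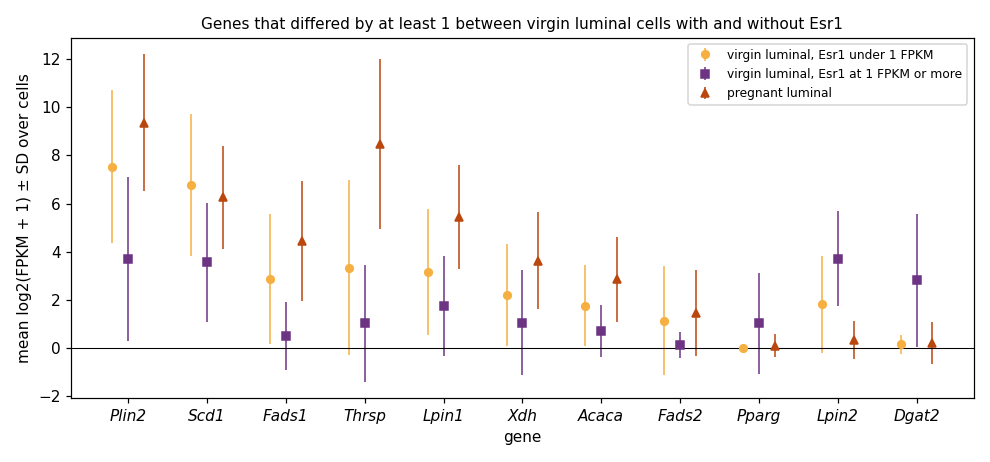
Mean log2(FPKM + 1) with the SD over cells as bars, for the 11 genes that differed by at least 1, in 21 virgin luminal cells without Esr1 (circles), 33 with it (squares) and 49 pregnant luminal cells (triangles). Cells with Esr1 were lower in the first 8 genes, most of all Plin2 and Scd1 (-3.85 and -3.22), and higher in the last 3, most of all Dgat2 (2.67).

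Basal cells held few of the transcripts. Cd36 (difference -1.39) and Lpl (-1.34) were lower in pregnant than in virgin basal cells, and Cd36 was lower in virgin luminal than in virgin basal cells (-1.46). Lpl had a median of 1.16 FPKM in virgin basal cells (0.0262 to 339) and 0.143 FPKM in pregnant basal cells (0 to 15.98), ranges that overlap. The part of the adipocyte markers found in some basal cells in these differences was not tested. Cd36 was the listed gene with the highest mean FPKM in virgin basal cells (204), although its median was 0.0104 FPKM and 8 of 34 cells reached 1 FPKM. Of 9 endothelial markers, at least 3 reached 1 FPKM in 6 of 34 virgin basal cells, 4 pregnant basal cells, 1 pregnant luminal cell and 0 of 54 virgin luminal cells. The summed level of the markers reached 6710, 2217, 191 and 12.2 FPKM in these groups, in that order. Cd36 was at 1 FPKM or more in 5 of these 6 virgin basal cells (median 779 FPKM) and in 3 of the other 28 (median 0). In pregnant basal cells it was at 1 FPKM or more in 4 of 4 (median 611 FPKM) and in 2 of 98. None of the 6 virgin basal cells reached 1 FPKM of Krt14, a basal keratin, or of Krt18, a luminal keratin. Of the 4 pregnant basal cells, 3 reached 1 FPKM of Krt14 (up to 20.5) and 4 held Acta2, a smooth muscle actin (2.94 to 244 FPKM), against medians of 729 and 4954 FPKM in the other pregnant basal cells. Without the cells with 3 endothelial markers, an alternative chosen after seeing the data, Cd36 no longer passed 1 in either comparison (-0.29 and -0.04), while Lpl stayed lower in pregnant basal cells (-1.10). Fads1 then fell short of 1 (0.89) and Elovl5 passed it in its place. Among cells with at least 2000 genes the differences of Cd36 were 0.054 and 0.036.

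**Figure D5:**
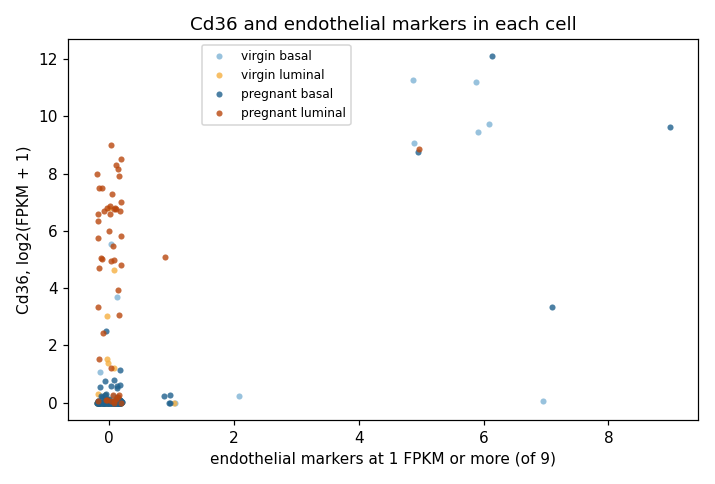
Cd36 as log2(FPKM + 1) in each cell against the number of 9 endothelial markers at 1 FPKM or more, with 1 point per cell (points shifted sideways slightly so that they can be seen). Of the 10 basal cells with 3 or more markers, 9 held Cd36 at 1 FPKM or more, 5 other basal cells did so with fewer markers (up to 45.6 FPKM), and pregnant luminal cells with high Cd36 lie mostly at the left.

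In pregnant luminal cells Cd36 was not confined to cells with those markers. It was at 1 FPKM or more in 37 of 48 cells with fewer than 3 of them. The 1 cell with 3 or more had Cd36 at 457 FPKM, the second highest of the group. With 1 such cell, whether Cd36 went with the markers in this group cannot be told. Of the 49 pregnant luminal cells, 4 had Plin2 under 10 FPKM (0.497 to 6.07). In these Acta2, a smooth muscle actin of myoepithelial cells, ranged from 15.7 to 6465 FPKM, against a median of 0.434 FPKM in the other 45. Their Thrsp was at 0.257 to 2.87 FPKM against a median of 836 FPKM, and their Lpin1 at 0.0467 to 12.3 FPKM against a median of 77.1 FPKM. Fabp3 was less sharply low, at 52.5 to 181 FPKM against a median of 2536 FPKM. The part of mixed or misplaced cells in these values was not tested. Without the 7 pregnant luminal cells and 1 virgin luminal cell with Acta2 at 10 FPKM or more, 20 of 40 genes were higher and 2 lower in pregnant than in virgin luminal cells, where 5.81% of all genes were higher and 5.37% lower.

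Within pregnant luminal cells the genes varied along with Csn2, which encodes beta-casein, the main milk protein of the mouse. Spearman's rho with Csn2 over 49 cells was positive for 34 of 40 genes, with a median of 0.33 and a range of -0.22 to 0.86. Over 10274 genes that vary in these cells it was positive for 52.6%, with a median of 0.01. It was highest for Fabp3 (0.86), Thrsp (0.69), Cidea (0.67), Cd36 (0.65) and Acsl4 (0.64), and it was 0.59 for Plin2. With Wap, the whey acidic protein, the median over the 40 genes was 0.23 and 32 were positive (47.02% positive and a median of -0.01 over all genes), with 0.84 for Fabp3, 0.60 for Thrsp and 0.26 for Plin2. In virgin luminal cells rho with Csn2 was positive for 30 of 40 genes, with a median of 0.14 over 54 cells. Over 10264 genes it was positive for 41.6%, with a median of -0.03. Its highest values there were for Plin2 (0.73), Scd1 (0.69), Btn1a1 (0.66) and Lpin1 (0.66). These are descriptions over cells of 1 sample that share its preparation. The 4 pregnant luminal cells with Plin2 under 10 FPKM were low in Csn2 too, at 773 to 3318 FPKM. The other 45 had a median of 27607 FPKM. The part of these 4 cells in the values of rho was not tested. The number of listed genes found in a cell also went with the number of all genes found (rho 0.55 in pregnant and 0.38 in virgin luminal cells), while Csn2 itself had rho of 0.18 and -0.11 with that number.

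A list of 83 other lipid genes, among them binding proteins, thioesterases, mitochondrial enzymes and lipases, was counted in the same way. In pregnant luminal cells 13 of 83 (15.7%) were higher and 2 lower than in virgin luminal cells, with a background of 4.84% and 5.04%, and 24 (28.9%) were higher and 1 lower than in pregnant basal cells, with a background of 16.3% and 5.27%. Dbi, the acyl-CoA binding protein, was higher than in virgin luminal cells by 2.95 (mean log2 9.23 ± 1.12, SD over 49 cells, against 6.28 ± 2.56, SD over 54 cells) and reached 1 FPKM in 49 of 49 cells. The thioesterase Acot1 (2.10), the mucin Muc1 of the globule membrane (1.88), the binding protein Fabp5 (1.80) and the globule protein Mfge8 (1.75) followed. Acot1 and Acot2 are close copies whose fragments may not be separable, and for Mfge8 the ratio of mean FPKM was 0.811, so its direction depends on the scale. In pregnant basal cells 14 of 83 (16.9%) were higher and 1 lower than in virgin basal cells, a share near the background of 12.0% higher (0.454% lower). These were led by Dbi (3.02), Tecr (2.66), an enzyme of elongation, Mfge8 (2.40) and Hadha (2.33), an enzyme of beta-oxidation, with Fabp4 lower (-2.08). Fabp4, a binding protein of adipocytes and capillary endothelium, had medians of 8632 and 8786 FPKM in the virgin and pregnant basal cells with 3 endothelial markers, and 0 in the other basal cells of both groups. Virgin luminal cells exceeded virgin basal cells in 34 of 83 (40.96%) and were lower in 1, Fabp4 (-3.43), with a background of 26.9% and 2.41%.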

How the data were processed

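The authors deposited 1 table of FPKM values for 18850 genes and 239 cells. No header states the unit, which was inferred from the tools and from the values. The submitters' processing notes name Trimmomatic 0.35, TopHat2 2.0.13, Cufflinks 2.2.1 and the build mm10 (GRCm38). Which annotation was used, how fragments matching several genes were handled and whether genes were filtered is not stated in the sources used here. No column of the deposited FPKM table lacked a sample, and no cell was left out.

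Groups were taken from the labels. The 40 genes, the 83 other lipid genes and the marker lists were chosen with earlier results of these data known. All 40 genes could be named. Of the other lipid genes the text names, in each comparison, the up to 5 with the largest difference of at least 1, 3 of the 83 having been found by an older symbol (Gpat3, Gpat4 and Gk). Markers and Csn2 are named where labels are checked. Group means of log2(FPKM + 1) were compared, with the SD over cells, a minimum difference of 1, and detection at 1 FPKM. Intervals are exact Clopper-Pearson intervals at 95%, and a count of 0 was given the limit of 3 cells. Each group counts as 1 sample, so no test was run. Depth was read from the steps of low FPKM values: of 491415 values below 20 steps, 99.99% lay within 0.05 step of a whole number of steps, and 1177 single-transcript genes set the absolute scale. Scripts were tested on simulated data. Gene coordinates are from GENCODE M21 and promoters from RefSeq. Alternatives were 2 other pseudocounts, rescaling without milk protein genes, cells chosen by number of genes, by lineage markers or by Esr1, 2 other filters on genes, a 10 FPKM threshold and, added after seeing the data, leaving out cells with endothelial markers. Python 3.11.15, numpy 2.4.6, pandas 2.3.3, scipy 1.17.1 and matplotlib 3.10.9 were used.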

Additional observations from a re-analysis of the deposited data

How the results depend on the processing

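No paired analysis was possible because each group is 1 sample and the differences come from no test, and the numbers in the cell titles only name cells. Of the 20 genes that differed between pregnant and virgin luminal cells, those still past a difference of 1 in the same direction were counted. They numbered 20 with a pseudocount of 0.1, 10 with a pseudocount of 10 and 18 after rescaling without milk protein genes. In cells with at least 2000 genes they numbered 20, and in the middle range of genes per cell (2427.5 to 3729) 17. They numbered 20 without cells whose markers go against the gate and 17 against virgin luminal cells without Esr1. With pseudocounts of 0.1 and 10, 11.5% and 1.06% of all genes were higher and 12.6% and 1.26% lower. After rescaling these shares were 3.74% and 6.09%. For the choices of cells, in the same order, 4.93%, 5.79%, 5.81% and 6.17% were higher and 5.21%, 6.56%, 5.37% and 2.94% lower.

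The counts of the 40 genes that moved most followed the pseudocount. With 0.1, pregnant luminal cells were lower than pregnant basal cells in 1 gene, pregnant basal cells were higher than virgin basal cells in 5, and virgin luminal cells were higher than virgin basal cells in 28 and lower in 2. The shares over all genes moved too, to 8.90% lower, 24.9% higher, and 49.9% higher and 3.93% lower in these comparisons. With 10, pregnant luminal cells were higher than virgin luminal cells in 9 genes and lower in 1, and higher than pregnant basal cells in 15, pregnant basal cells were higher than virgin basal cells in 0 and lower in 0, and virgin luminal cells were higher than virgin basal cells in 4 and lower in 0. Over all genes these shares were 1.06% and 1.26%, 3.76%, 3.07% and 0.135%, and 7.42% and 0.947%, in the same order. Cells with at least 2000 genes leave 12 virgin basal cells. In this set 0 listed genes were lower in virgin luminal than in virgin basal cells, against 4.78% of all genes. Of the 3 genes that differed between basal groups, 1 remained there and 1 in the middle range of genes per cell, which leaves 6 virgin basal cells. Over all genes, 8.22% were higher and 3.26% lower in pregnant basal cells in the first set, and 10.8% and 7.40% in the second. Without virgin luminal cells that held Esr1, 1 listed gene was lower in pregnant than in virgin luminal cells, against 2.94% of all genes. Without the cells with 3 endothelial markers, an alternative chosen after seeing the data, 1 gene was lower in pregnant than in virgin basal cells and 0 were lower in virgin luminal than in virgin basal cells. The causes were not tested.

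Some differences changed sign. That of Cd36 between pregnant and virgin basal cells became 0.054 in cells with at least 2000 genes and 0.38 in the middle range, and that between virgin luminal and virgin basal cells became 0.036 and 0.46. Against virgin luminal cells without Esr1 the difference of Scd1 became -0.52 and that of Dgat2 0.057. With genes found in 25% of the cells of the higher group as background, 8.01% of genes were higher and 8.31% lower in pregnant than in virgin luminal cells, and with no filter on genes these shares were 2.66% and 2.77%. At a threshold of 10 FPKM, 84 of 160 shares of cells holding a listed gene left the interval they had at 1 FPKM. Low genes are limited by depth and capture, so a gene under 1 FPKM in a cell is not shown to be absent from it.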
